A study of Mus musculus with 15 samples.

Results

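The genes of the mouse major histocompatibility complex (MHC, called H2 in mice) and of antigen processing were followed in RNA from ileum, the final stretch of small intestine. Members were chosen by name: every mouse symbol that begins with H2-, together with B2m, Tap1, Tap2, Tapbp, Psmb8, Psmb9, Psmb10, Nlrc5, Cd74 and Ciita. This rule found 55 annotated genes, of which 53 had a row among the 37620 gene identifiers of the count tables. Psmb9 and H2-Pa were not analysed here. The 53 genes were kept in classes. They comprised 2 classical class I genes (H2-K1 and H2-D1), 30 nonclassical class I genes (the H2-Q, H2-T and H2-M series with H2-Bl and H2-K2), 7 genes of the class I machinery, 6 class II chain genes, 5 class II accessory genes, the class II partner Cd74 with the regulator Ciita, and H2-Ke6. H2-Ke6 carries the H2 name for its position and encodes a dehydrogenase, not an MHC chain.

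The study was designed to delete Rfx6, a transcription factor gene of hormone-producing intestinal cells, in adult mice. Animals labelled mutant carried Rfx6f/f and Vilin-CreERT2, a tamoxifen-inducible Cre recombinase under the Villin promoter that drives expression in epithelial cells of the gut. Controls carried Rfx6f/f or Rfx6f/+ and no recombinase. Mice of every group were gavaged with 10 mg tamoxifen, 2 times per day on every other day of a 5-day course, per the treatment protocol. At 8 days after tamoxifen there were 3 controls, all Rfx6f/f, and 4 animals labelled mutant. At 3 months there were 4 controls (replicates 1 and 4 Rfx6f/f, replicates 2 and 3 Rfx6f/+) and 4 animals labelled mutant. Exact ages and strain background are not given in the sources used here, and nothing in the labels says that samples were pooled. No group carried the recombinase without floxed Rfx6, so effects of the recombinase itself cannot be told apart from those of the deletion.

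Class I molecules sit on nearly all nucleated cells and present peptides from inside the cell to CD8 T cells. The immunoproteasome cuts proteins into peptides, the TAP transporter carries these into the endoplasmic reticulum, and tapasin helps to load them onto a class I heavy chain paired with beta-2-microglobulin. Class II molecules sit on B cells, dendritic cells and macrophages, and also on the epithelium of the small intestine, and present peptides from outside the cell to CD4 T cells. Interferon gamma raises both systems, through transcription factors such as IRF1 and the coactivators NLRC5 (class I) and CIITA (class II).

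Transcription of class II genes depends on a promoter module whose X box is bound by the RFX5 complex, a relative of Rfx6, and whose Y box is bound by NF-Y. Class I promoters carry an interferon-responsive element. Windows from 250 bases before to 50 bases after each RefSeq start (GRCm38.p6) were searched on both strands, and 37 of the 53 genes had a window. The X box core was searched as AG, any 2 bases, AC, any 3 bases and TG, which 14.8% of all 32851 windows hold, and the Y box as ATTGG, which 37.4% hold. An X box core followed by a Y box after 18 to 24 bases, a spacing chosen after the matches were seen, was in 0.0822% of all windows and in 4 members. The part before the start is shown for these 4 because they hold the module and belong to both sets of class II genes described further on. Capitals mark the X box core and then the Y box.
H2-Eb1, chr17:34305617-34305866, plus strand: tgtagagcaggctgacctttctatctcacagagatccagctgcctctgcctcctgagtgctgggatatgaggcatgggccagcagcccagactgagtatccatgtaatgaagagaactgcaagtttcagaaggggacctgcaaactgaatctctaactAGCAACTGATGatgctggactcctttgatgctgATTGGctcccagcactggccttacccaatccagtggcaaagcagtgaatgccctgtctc
H2-DMb1, chr17:34152941-34153190, plus strand: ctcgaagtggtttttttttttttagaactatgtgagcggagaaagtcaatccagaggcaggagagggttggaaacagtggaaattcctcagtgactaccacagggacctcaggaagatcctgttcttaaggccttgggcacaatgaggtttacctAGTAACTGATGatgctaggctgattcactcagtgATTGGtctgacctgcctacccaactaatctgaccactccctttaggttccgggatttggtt
H2-Eb2, chr17:34325425-34325674, plus strand: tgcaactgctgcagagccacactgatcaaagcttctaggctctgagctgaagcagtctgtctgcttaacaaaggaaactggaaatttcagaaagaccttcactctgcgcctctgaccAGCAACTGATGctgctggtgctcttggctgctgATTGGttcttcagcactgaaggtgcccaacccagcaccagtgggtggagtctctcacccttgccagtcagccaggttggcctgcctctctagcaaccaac
H2-Ob, chr17:34238655-34238904, plus strand: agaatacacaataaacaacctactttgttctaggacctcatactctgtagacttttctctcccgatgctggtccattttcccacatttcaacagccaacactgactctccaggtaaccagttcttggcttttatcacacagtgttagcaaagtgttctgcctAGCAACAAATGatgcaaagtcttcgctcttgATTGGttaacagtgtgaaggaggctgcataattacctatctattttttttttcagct
H2-Eb1 and H2-Eb2 had the same X box core and 22 bases between the boxes, H2-DMb1 had 23 and H2-Ob had 20. In H2-Eb1 the X box core began 92 bases before the start, in H2-Eb2 133, in H2-DMb1 95 and in H2-Ob 88. No match says only that these letters are not in the window.

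The interferon element was searched as TTTCNNTTC, found in 7.52% of all windows and in 8 members (H2-K1, H2-D1, H2-M2, H2-M3, H2-Q4, H2-Q6, H2-Q7 and H2-Q10), and in a longer form as TTTC, any 2 bases and TTTC, found in 3.44% of all windows and in B2m, H2-T22 and H2-T23. H2-D1 and B2m are shown because they make the heavy chain and the light chain of the same molecule. Capitals mark the match, which in B2m reads on the minus strand.
H2-D1, chr17:35262844-35263093, plus strand: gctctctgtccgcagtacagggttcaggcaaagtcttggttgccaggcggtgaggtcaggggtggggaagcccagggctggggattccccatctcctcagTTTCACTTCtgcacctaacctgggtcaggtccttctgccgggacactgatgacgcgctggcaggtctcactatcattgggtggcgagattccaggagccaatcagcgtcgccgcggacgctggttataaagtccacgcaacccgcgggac
B2m, chr2:122147437-122147686, plus strand: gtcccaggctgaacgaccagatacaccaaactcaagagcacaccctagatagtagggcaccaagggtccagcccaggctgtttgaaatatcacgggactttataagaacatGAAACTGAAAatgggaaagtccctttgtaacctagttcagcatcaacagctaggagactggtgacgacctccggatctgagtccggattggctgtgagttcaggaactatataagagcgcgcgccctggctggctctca
These matches are descriptions of letters, not shown binding sites.

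Library totals were 30452485 to 54468586 counts at 8 days and 26078462 to 36270306 at 3 months, and the members held 0.461 to 1.06% of them. Levels are counts per 1000000 (CPM) after scaling within each cohort. The labels were checked first. Rfx6 itself did not fall under the mutant label: it stood at 1.503 ± 0.13 (SD, n = 3) against 1.71 ± 0.27 CPM (SD, n = 4) at 8 days and at 1.59 ± 0.13 (SD, n = 4) against 2.62 ± 0.53 CPM (SD, n = 4) at 3 months, where it was higher (edgeR quasi-likelihood adjusted p 0.0347). The tables hold 1 count per gene, so reads from the deleted exons are not seen apart. The hormone gene Gcg was at 36.3 to 43.8 CPM in controls and 1.22 to 3.497 CPM in libraries labelled mutant at 8 days, and at 38.8 to 70.6 CPM against at most 0.178 CPM at 3 months. Because the targeted transcript did not fall, groups are called by their labels. The tissue label was met by its markers: Fabp6 and 3 other ileal transport genes summed to 1259 to 3863 CPM over all 15 libraries, and Epcam, Vil1 and 6 other epithelial genes to 9220 to 12949 CPM. The labels name separate samples and give no further detail on animals, so p-values measure the spread between these samples.

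In control ileum the light chain and the class II partner stood highest among the members when levels were set per length of exon. B2m was at 918 CPM per kilobase in controls at 8 days and 1598 at 3 months. Cd74, the invariant chain that escorts class II molecules, was at 728 and 1130 CPM per kilobase. The heavy chain genes H2-K1 (331 and 436) and H2-D1 (282 and 358) came next, followed by the class II chain genes H2-Ab1 (198 and 302), H2-Eb1 (178 and 272) and H2-Aa (142 and 253), in the same unit. Within a cohort the neighbours in this order were close: at 8 days the control SD of H2-Aa was 261 CPM around a mean of 540 CPM, so the order among class II chains is not resolved there. The class I regulator Nlrc5 (4.22 and 10.3 CPM per kilobase) and the class II regulator Ciita (6.86 and 13.2) were lower than the classical class I genes and the class II chain genes just named. H2-Ob (1.10 and 4.79) and H2-Eb2 (0.436 and 2.70) were lower still. Among nonclassical class I genes H2-Q2 (127 and 85.7), H2-T23 (59.3 and 76.2) and H2-T3 (55.9 and 49.9 CPM per kilobase) led. H2-T23 encodes Qa-1, a ligand of inhibitory receptors on natural killer cells, and H2-T3 encodes the thymus leukemia antigen, which is known from intestinal epithelium.

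**Figure D1:**
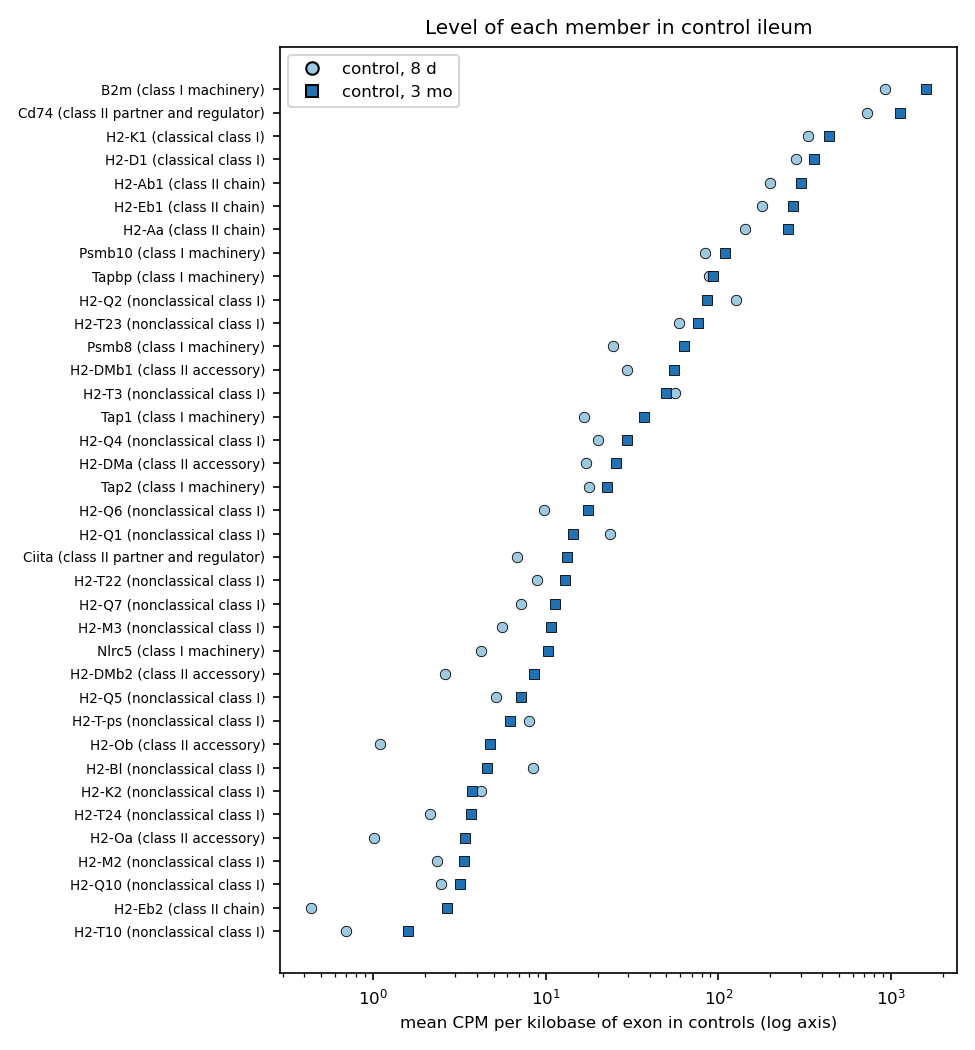
Mean CPM per kilobase of exon in control ileum (log axis) for the 37 members with a mean of at least 1 CPM over the 15 libraries, with circles for 8 days (n = 3) and squares for 3 months (n = 4). B2m at 918 and 1598 and Cd74 at 728 and 1130 lie at the top.

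The remaining members ranged widely. Tapbp (88.7 and 92.7 CPM per kilobase in controls at 8 days and 3 months) and Psmb10 (83.5 and 109) stood high. Others were scarce. No read was counted in any library for 7 genes (H2-M1, H2-M10.1, H2-M10.3, H2-M10.4, H2-M10.5, H2-M10.5-ps1 and H2-M11), all of the H2-M series, some of which are known from the vomeronasal organ. A count of 0 allows up to 3 counts, or 0.0552 to 0.117 CPM depending on the library, for counting error only. After the filter on low counts 39 members were tested at each time, 38 of them at both. H2-Q3 passed the filter only at 8 days and H2-M9 only at 3 months, and 13 genes were outside it at both times. The genes outside it included H2-Ea-ps, at 3 counts over all 15 libraries, and H2-Pb, at 1.

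The first comparison asked how the members stood 8 days after tamoxifen. No member was called at an adjusted p under 0.05, against a background of 0.0915% of the 17493 genes tested. An unadjusted p under 0.05 was reached by 6 of 39 members (H2-Eb2, H2-Oa, H2-Ob, H2-DMb2 and H2-T24 with higher means in the libraries labelled mutant, H2-Q2 with a lower one) and 1540 of all genes, and DESeq2 also called 0 members. The log2 fold change of libraries labelled mutant over control is given as log2 change, and its median was -0.04 over members and -0.00 over all genes. Tap1, a subunit of the peptide transporter, was at 99.4, 105 and 68.2 CPM in the controls and at 116, 62.9, 90.1 and 93.6 CPM in the libraries labelled mutant, so the groups overlapped fully (log2 change -0.00, SE 0.21). H2-K1 was at 958, 1102 and 854 CPM in controls and 1025, 753, 970 and 975 CPM in libraries labelled mutant (log2 change -0.06, SE 0.13). All 7 machinery genes lay between -0.23 and -0.00.

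At 8 days the same libraries stood low for most members. Outside H2-Oa, H2-Ob, H2-DMb2 and H2-Eb2, control replicate 3 had the lowest control value for 27 of 35 tested members and replicate 2 of the libraries labelled mutant had the lowest of its group for 29 of 35. For H2-Aa, the class II alpha chain, control replicates 1 and 2 stood at 661 and 719 CPM and replicate 3 at 241 CPM. The libraries labelled mutant stood at 622, 274, 402 and 436 CPM. The range of the controls thus enclosed that of the libraries labelled mutant, and the log2 change of H2-Aa was -0.32 (SE 0.37). For H2-Aa, a change of the size given for 3 months is thus not shown to be absent at 8 days.

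At 3 months, 15 of 39 tested members were called, and each of the 15 was lower in the libraries labelled mutant (38.5%, against 4.32% of the 17085 genes tested called in that direction and 9.28% in either direction). Members were chosen with earlier results of these data known, so this contrast with all genes is not independent of the choice. The class I machinery held 5 of the 15, with Nlrc5 3.39-fold and Tap1 2.79-fold lower, the classical class I genes 1, the nonclassical class I genes 8 and the class II side only Ciita. Log2 changes were negative for 36 of 39 members, with a median of -0.63 against 0.01 for all genes. In 22 of 39 members every library labelled mutant lay below every control, as in 9.53% of all genes tested. An unadjusted p under 0.05 was reached by 29 members and 5018 of all genes. The 3 members with positive values were H2-M9, H2-M2 and H2-Ke6 (0.75, 0.23 and 0.25), none of them called.

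**Figure D2:**
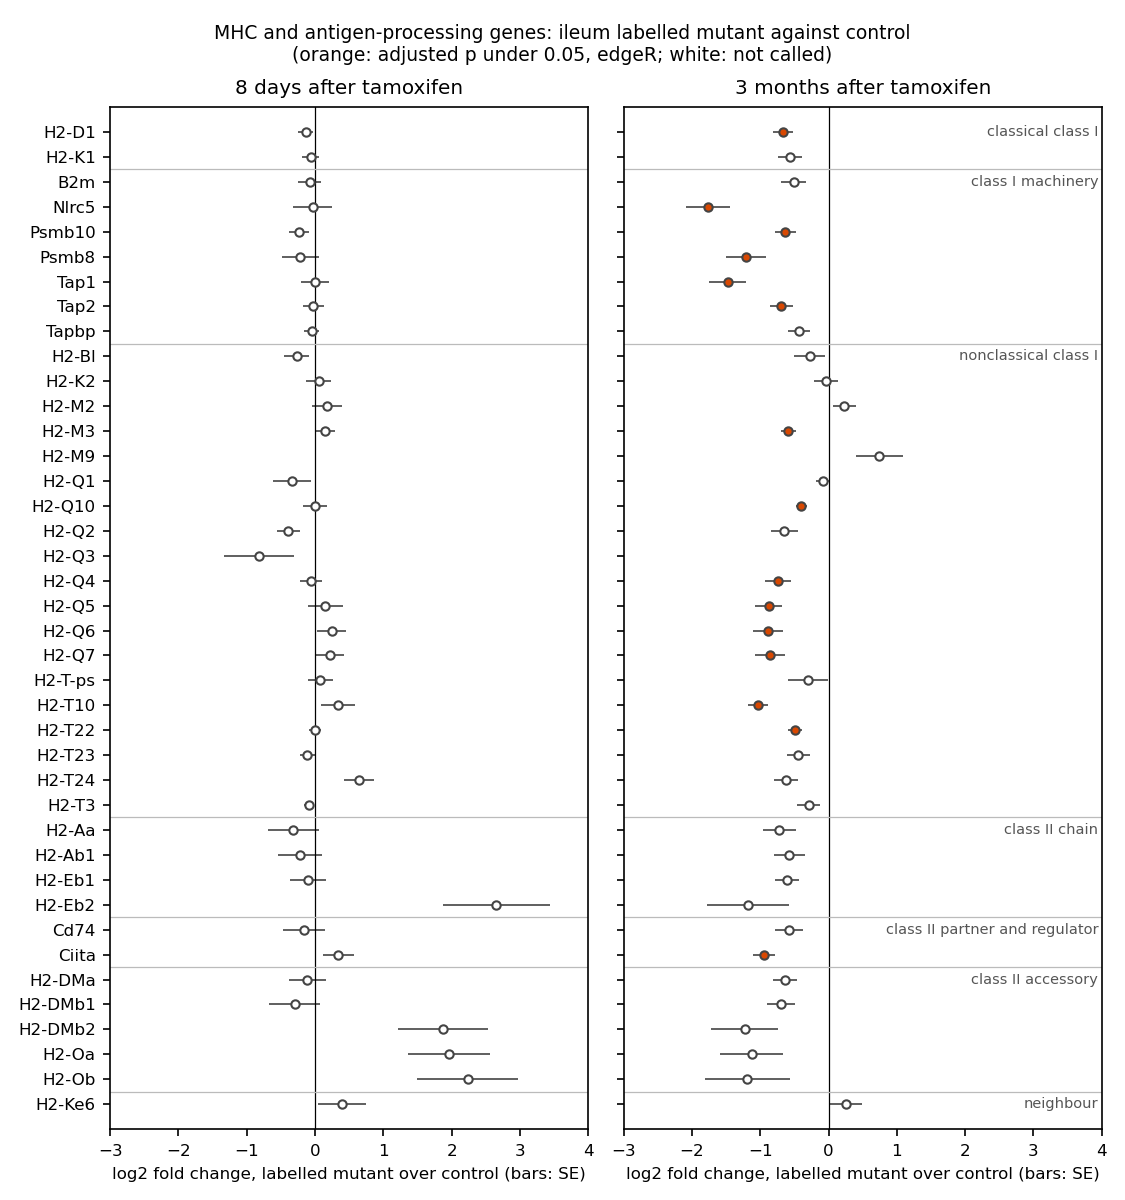
Log2 change of each tested member, libraries labelled mutant over control, with SE bars, at 8 days (left) and 3 months (right), ordered by class. Orange points were called by edgeR at an adjusted p under 0.05: 0 at 8 days and 15 at 3 months, all left of 0.

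Among the class I machinery at 3 months, Tap1 (ENSMUSG00000037321) was at 195, 208, 205 and 201 CPM in the controls. In the libraries labelled mutant it was at 54.1, 117, 43.5 and 75.9 CPM. Every library labelled mutant lay below every control, with replicate 2 closest to them, and Tap1 fell 2.79-fold (log2 change -1.48, SE 0.26, adjusted p 0.0165 by the quasi-likelihood test of edgeR). Its partner subunit Tap2 was at 80.7, 81.5, 87.5 and 91.7 CPM in controls and 46.2, 74.0, 39.5 and 51.2 CPM in libraries labelled mutant (log2 change -0.70, SE 0.17, adjusted p 0.0391). Replicate 2 was again the highest of its group and the groups did not overlap. Nlrc5 (ENSMUSG00000074151), the coactivator of class I genes, was at 67.6, 105, 104 and 74.3 CPM in controls and 19.5, 46.1, 15.8 and 22.2 CPM in libraries labelled mutant. It had the most negative value of all tested members at this time (log2 change -1.76, SE 0.33, adjusted p 0.0178).

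Both immunoproteasome genes analysed fell. Psmb8 was at 201, 228, 226 and 205 CPM in controls and 67.8, 162, 54.1 and 89.2 CPM in libraries labelled mutant (log2 change -1.21, SE 0.30, adjusted p 0.0396). Psmb10 was at 181 to 196 CPM in controls and 104, 161, 94.0 and 121 CPM in libraries labelled mutant (log2 change -0.63, SE 0.15, adjusted p 0.0345). For both genes replicate 2 of the libraries labelled mutant lay nearest the controls, without overlap. Tapbp, which encodes tapasin, and B2m did not pass. Tapbp was at 301 to 370 CPM in controls and 246, 335, 190 and 226 CPM in libraries labelled mutant (log2 change -0.43, SE 0.16, adjusted p 0.110). B2m was at 1286 to 1478 CPM in controls and 944, 1331, 659 and 932 CPM in libraries labelled mutant (log2 change -0.51, SE 0.18, adjusted p 0.108). In both, replicate 2 alone lay within the control range.

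Of the classical heavy chain genes, H2-D1 was called and H2-K1 was not. H2-D1 (ENSMUSG00000073411) was at 929, 967, 958 and 837 CPM in controls and 536, 774, 476 and 528 CPM in libraries labelled mutant (log2 change -0.67, SE 0.15, edgeR adjusted p 0.0279). H2-K1 was at 1229, 1214, 1349 and 1334 CPM in controls and 852, 1177, 601 and 825 CPM in libraries labelled mutant (log2 change -0.57, SE 0.18, adjusted p 0.0715). Neither gene's groups overlapped, and the values of the genes differ by less than their SEs. Sequence shared with other class I genes was limited: 87.2% of the 50-base words of H2-D1 and 90.4% of those of H2-K1 are in no other annotated gene.

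**Figure D3:**
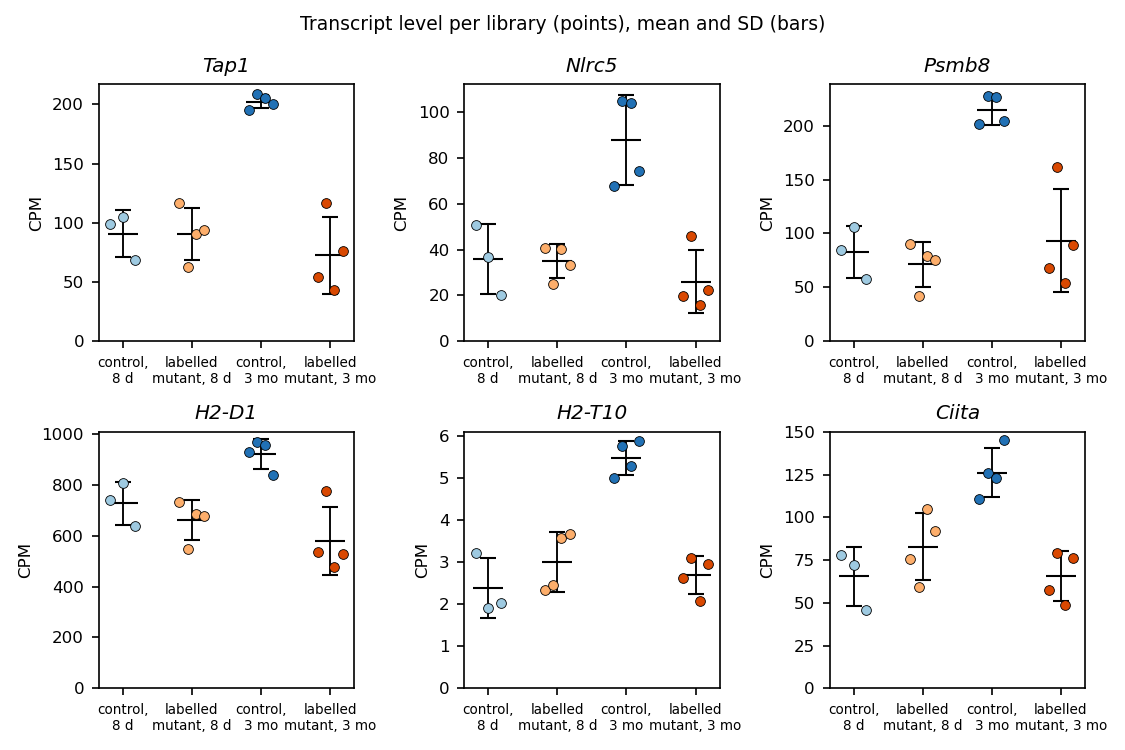
CPM per library (points) with the group mean and SD (bars) for Tap1, Nlrc5, Psmb8, H2-D1, H2-T10 and Ciita, with n = 3, 4, 4 and 4 from left to right. In all 6 panels the 4 controls of 3 months lie above the other libraries, and the highest library labelled mutant at 3 months is replicate 2.

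Of the nonclassical class I genes, 8 of the 18 tested were called lower at 3 months. H2-T10, whose product is a ligand of some gamma delta T cell receptors, was at 5.01, 5.77, 5.28 and 5.88 CPM in controls and 2.63, 3.10, 2.08 and 2.95 CPM in libraries labelled mutant (log2 change -1.03, SE 0.15, edgeR adjusted p 0.00873). Its close relative H2-T22 was at 41.6 to 45.9 CPM in controls and 28.3, 38.8, 27.4 and 31.4 CPM in libraries labelled mutant (log2 change -0.49, SE 0.11, adjusted p 0.0283). H2-M3, which presents formylated bacterial peptides, was at 14.5 to 16.9 CPM against 10.1, 11.8, 8.56 and 11.04 CPM (log2 change -0.59, SE 0.11, adjusted p 0.0187). The groups of all 3 genes were apart.

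In the H2-Q series, H2-Q4, H2-Q5, H2-Q6, H2-Q7 and H2-Q10 were called. H2-Q6 and H2-Q7 encode Qa-2. H2-Q7 was at 41.4, 61.1, 49.4 and 42.2 CPM in controls and 24.4, 37.4, 17.4 and 27.7 CPM in libraries labelled mutant (log2 change -0.86, SE 0.22, adjusted p 0.0434), and H2-Q6 changed by -0.89 (SE 0.22, adjusted p 0.0403). H2-Q4 gave a log2 change of -0.74 (adjusted p 0.0410) and H2-Q5 one of -0.88 (adjusted p 0.0331). H2-Q10, whose product is secreted, had the smallest called value: 12.9 to 14.9 CPM in controls and 9.60 to 11.1 CPM in libraries labelled mutant (log2 change -0.40, SE 0.08, adjusted p 0.0239). Other nonclassical genes were not called. H2-Q2 was at 179 to 194 CPM against 113, 169, 74.7 and 120 CPM (adjusted p 0.0736). H2-T23 was at 200 to 235 CPM in controls against 152, 220, 111 and 166 CPM (adjusted p 0.133), and H2-T3 at 112 to 156 CPM against 121, 141, 79.4 and 104 CPM (adjusted p 0.281). H2-T23, H2-T3 and H2-Eb2 were chosen after their values were seen.

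Counts of these paralogs are uncertain where reads match more than 1 of them, since the handling of such reads is not given in the sources used here. Words found in no other annotated gene made up 46.5% of H2-T22 and 49.6% of H2-T10, which share 31.7% of the words of H2-T10. The share was 63.6% for H2-Q4 and for H2-Q5, 65.0% for H2-Q6, 73.6% for H2-Q7 and 80.9% for H2-Q10. It was 99.4% for H2-M3, so its value does not rest on shared sequence. Exons of Nlrc5, Psmb8, Tap1, Tap2, Tapbp, H2-DMa, H2-Oa, Ciita, H2-Q4, H2-T10 and H2-T22 overlap a gene on the other strand, and whether counting used strand is not given.

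All 11 tested class II genes had negative values at 3 months, and Ciita was the only one called. Ciita (ENSMUSG00000022504), the master regulator, was at 111, 126, 123 and 145 CPM in controls and 57.6, 79.1, 48.8 and 76.2 CPM in libraries labelled mutant, and fell 1.93-fold (log2 change -0.95, SE 0.16, edgeR adjusted p 0.0126). The chains and their escort had negative values that did not pass. H2-Aa was at 923, 850, 985 and 1089 CPM in controls and 530, 883, 340 and 578 CPM in libraries labelled mutant (log2 change -0.72, SE 0.24, adjusted p 0.0910). H2-Ab1, the beta chain, was at 701 to 867 CPM against 476, 769, 325 and 514 CPM (-0.57, SE 0.22, adjusted p 0.127). Replicate 2 stood within the control range in both genes. H2-Eb1 was at 497 to 574 CPM against 318, 476, 241 and 352 CPM (-0.61, SE 0.18, adjusted p 0.0618), and Cd74 at 1826 to 1955 CPM against 1239, 1775, 800 and 1265 CPM (-0.58, SE 0.20, adjusted p 0.0973). H2-DMa and H2-DMb1, the subunits of the peptide exchange factor, had values of -0.64 and -0.70 (adjusted p 0.0582 and 0.0644). In these 4 genes the groups did not overlap, narrowly so for H2-DMb1, and replicate 2 of the libraries labelled mutant was the nearest to the controls. Without that library all 6 of these uncalled genes (H2-Aa, H2-Ab1, H2-Eb1, Cd74, H2-DMa and H2-DMb1) were called lower (adjusted p 0.00870 to 0.0255), as were H2-K1, B2m and Tapbp (adjusted p 0.0150, 0.0236 and 0.0158). Each of these genes was called in only this 1 of 8 fits with 1 library left out. It leaves out the library nearest the controls and called 1438 of all genes.

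H2-Oa and H2-Ob, which form an inhibitor of peptide exchange known from B cells, are described with H2-DMb2 and H2-Eb2. These 4 were set apart for the pattern seen across libraries, and no test compared them with the other class II genes. H2-Ob was at 3.64, 5.36 and 8.72 CPM in controls and 3.37, 22.1, 41.9 and 45.7 CPM in libraries labelled mutant at 8 days. At 3 months it was at 18.2, 37.4, 22.95 and 24.6 CPM in controls and 12.4, 3.04, 3.38 and 26.8 CPM in libraries labelled mutant. High values thus came from replicates 2, 3 and 4 of the libraries labelled mutant at 8 days, and low ones from replicates 2 and 3 at 3 months, with overlap at both times. The log2 change of H2-Ob was 2.24 (SE 0.74, adjusted p 0.460) at 8 days and -1.19 (SE 0.63, adjusted p 0.241) at 3 months. H2-Oa gave 1.96 and -1.12, H2-DMb2 1.88 and -1.23, and H2-Eb2 2.65 and -1.18, none of them called. Without replicate 1 of the libraries labelled mutant at 8 days, these 4 genes were called higher (edgeR adjusted p 0.0304 to 0.0322). That fit called 200 of all genes, against 16 with all libraries. Without replicate 4 of the libraries labelled mutant at 3 months, H2-DMb2, H2-Oa and H2-Eb2 were called lower (adjusted p 0.0412, 0.0429 and 0.0360). That fit called 1312 of all genes, against 1586. In these genes the library left out was the lowest of its group at 8 days and the highest at 3 months, so larger differences follow from the choice.

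Markers of B cells moved with these 4 genes. Summed over the 10 B-cell markers, none at 0 in all libraries, the level at 8 days was 25.9, 36.6 and 67.9 CPM in controls and 29.1, 158, 339 and 361 CPM in libraries labelled mutant. At 3 months it was 125, 277, 157 and 197 CPM in controls and 92.6, 25.05, 22.3 and 182 CPM in libraries labelled mutant. The libraries labelled mutant that were high or low in H2-Ob were thus those high or low in this sum. All 10 markers had positive log2 changes at 8 days and negative ones at 3 months, and 0 were called at either time. Other markers did so too. The 5 markers of follicle-associated epithelium, the cells over lymphoid follicles, all had positive log2 changes at 8 days (median 1.44) and negative ones at 3 months (median -0.33), none called. Their sum was 137 to 147 CPM in controls and 138, 164, 209 and 200 CPM in libraries labelled mutant at 8 days, and 153 to 197 against 141 to 164 CPM at 3 months. Of the other lists at 8 days, 10 of 12 dendritic cell and macrophage markers (median log2 change 0.09) and 7 of 8 T-cell markers (median 0.31) had positive values, none called. The highest of each list, chosen after the values were seen, were Ccr7 at 2.05 and Cd2 at 1.60. Positive values were held by 4 of 6 plasma cell markers (median 0.05) and 4 of 11 tested interferon gamma genes (median -0.02). They were held by 0 of 8 epithelial markers (median -0.09) and 1 of 4 ileal markers (median -0.22). With the mean log2 CPM of the B-cell markers as a covariate, the log2 change at 8 days was -0.245 for H2-DMb2 and -0.099 for H2-Ob. At 3 months H2-Ob gave 0.00531 in that fit. Over the alternatives tried, the lowest values at 8 days were 0.218 for H2-Oa and 0.333 for H2-Eb2. The part of B cells or of the other listed cells in the values of the 4 genes was not itself tested. In tissue RNA, fewer cells of a type and less RNA per cell cannot be told apart.

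**Figure D4:**
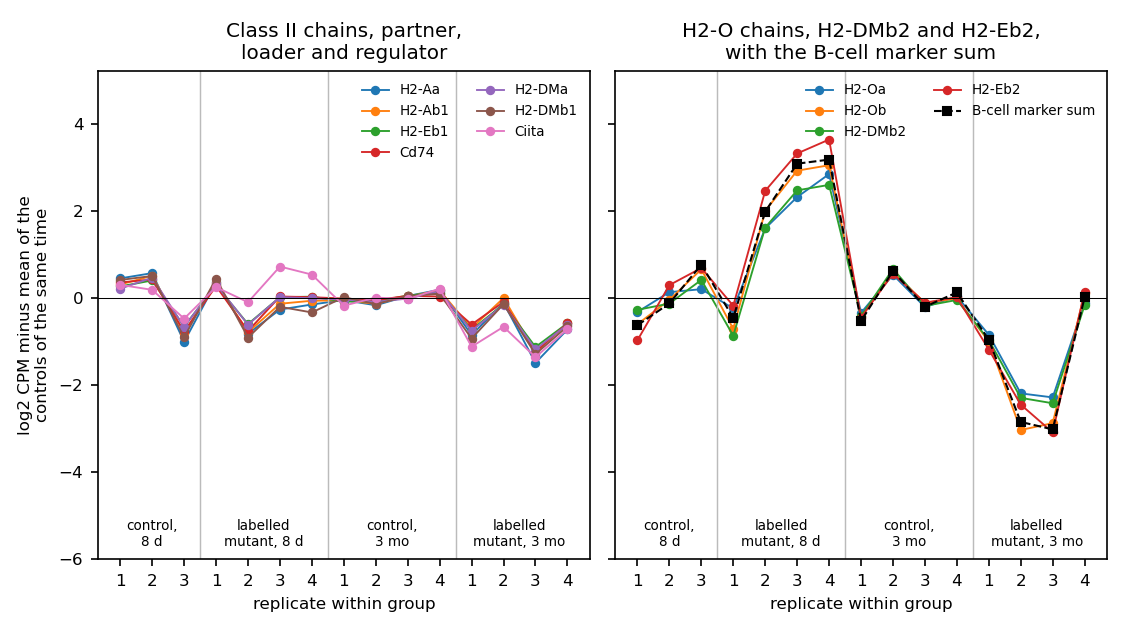
Log2 CPM of each class II gene minus the mean of the controls of its time, for the 15 libraries in 4 groups, where lines only join the values of 1 gene and replicate numbers carry no order. On the right H2-Oa, H2-Ob, H2-DMb2 and H2-Eb2 move with the sum of the B-cell markers (dashed). On the left the other class II genes dip in replicates 1, 3 and 4 of the libraries labelled mutant at 3 months, and Ciita in replicate 2 as well. At 8 days the genes on the left are lowest of their group in control replicate 3 and in replicate 2 of the libraries labelled mutant.

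The class I genes, Ciita and the other class II genes were set beside the interferon gamma pathway. Of its 12 listed genes, 8 were called lower at 3 months and 0 were called at 8 days. Of all genes tested, 4.32% were called lower at 3 months and 0.0915% were called at 8 days. Ifng, the cytokine itself, was at 0.626, 1.51, 1.13 and 1.09 CPM in controls and 0.128, 0.0990, 0.00 and 0.249 CPM in libraries labelled mutant at 3 months (log2 change -3.24, SE 0.57, edgeR adjusted p 0.0159). These are 18, 49, 29 and 31 counts against 4, 3, 0 and 7, so Ifng passed the filter only through the controls, and the fitted change rests on few reads. It was below the filter at 8 days. Irf1, a transcription factor gene of the pathway, was at 377, 420, 419 and 431 CPM in controls and 180, 278, 149.6 and 214 CPM in libraries labelled mutant, without overlap, and was 2.01-fold lower (SE 0.17 on the log2 scale, adjusted p 0.0134). Among the libraries labelled mutant, replicate 2 was highest and replicate 3 lowest, as for Tap1, Nlrc5, Psmb8, H2-D1 and H2-Aa. The receptor genes Ifngr1 and Ifngr2 and the kinase genes Jak1 and Jak2 had values between 0.01 and 0.29 and were not called.

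**Figure D5:**
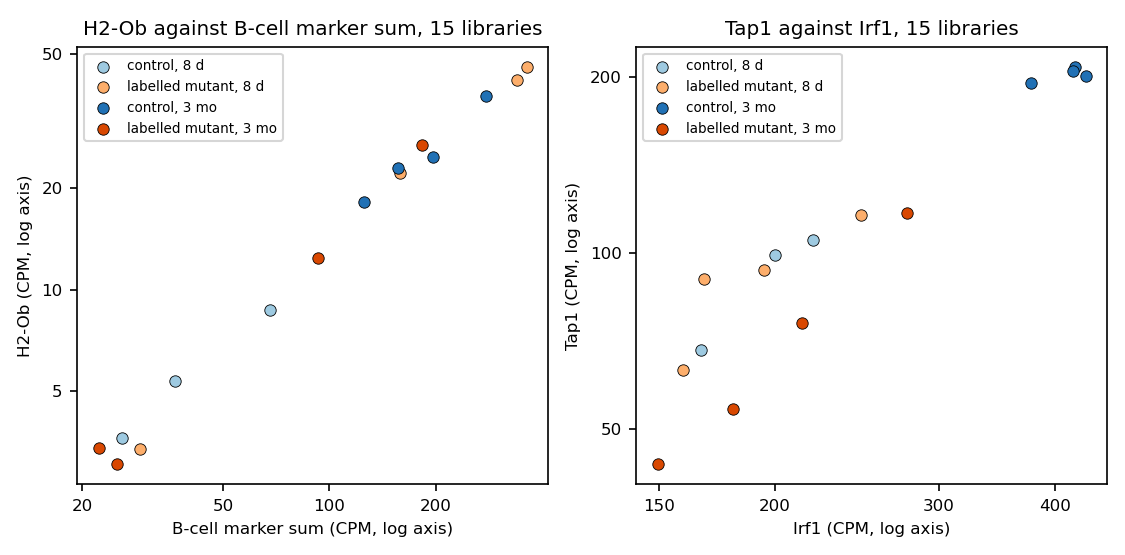
CPM of H2-Ob against the summed CPM of the 10 B-cell markers (left) and of Tap1 against Irf1 (right) in the 15 libraries, on log axes and coloured by group. H2-Ob and the marker sum are lowest in replicates 2 and 3 labelled mutant at 3 months and in replicate 1 of both groups at 8 days, whereas the controls of 3 months stand apart at the top for Tap1 and Irf1.

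Of 8 listed T-cell markers, 5 were called lower at 3 months (Cd3d, Cd3g, Cd8a, Cd8b1 and Cd5), and the sum over the 8 was 82.4 to 102 CPM in controls and 30.1 to 64.8 CPM in libraries labelled mutant. Among all genes tested at 3 months, 4.32% were called lower and 9.28% in either direction. Cd8a was at 25.6, 30.3, 32.1 and 25.0 CPM in controls and 8.41, 20.1, 5.30 and 10.47 CPM in libraries labelled mutant, again with replicate 2 highest and replicate 3 lowest. Plasma cell markers had 3 of 6 called lower (sums 2681 to 3561 against 1561 to 2199 CPM). Dendritic cell and macrophage markers had 1 of 12 called, Csf1r, which was higher (sums 279 to 327 against 303 to 404 CPM), and epithelial markers had 0 of 8 called (sums 10421 to 12095 against 9220 to 10744 CPM). The 4 ileal markers had 2 called lower, Fabp6 and Slc51b (sums 3192 to 3863 against 1259 to 2090 CPM). None of these listed markers was at 0 in all libraries. Mitochondrially encoded genes held 1.74 to 1.94% of counts in controls and 1.89 to 2.15% in libraries labelled mutant at 3 months. The part of these cells or of RNA quality in the members' values was not tested.

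Genes of antigen processing outside the MHC list were counted next. Of 15 listed genes of class I loading and the proteasome, 4 were called lower at 3 months, against 4.32% of all genes tested. The 4 were the proteasome activator genes Psme1 (-0.59, edgeR adjusted p 0.0219) and Psme2 (-0.63, adjusted p 0.0298), Tapbpl, which encodes a relative of tapasin (-0.62, adjusted p 0.0429), and Irf1. Irf1 is also on the interferon gamma list and is counted in both. The constitutive proteasome genes Psmb5, Psmb6 and Psmb7, which Psmb8 and its partners replace, had values of -0.13 to -0.23 and were not called. The chaperone genes Calr, Canx and Pdia3 were not called either.

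Of 16 listed genes of class II processing and transcription, none was called lower and Ctsl, a lysosomal protease gene, was called higher. At 3 months 9.28% of all genes tested were called in either direction. Ctsl was at 49.4 to 54.03 CPM in controls and 105, 75.9, 121 and 114 CPM in libraries labelled mutant (log2 change 1.003, SE 0.13, edgeR adjusted p 0.00613). Ctss, which trims the invariant chain, gave -0.30 (adjusted p 0.113). The genes of the complex on the X box had small values: Rfx5 gave -0.27 (SE 0.08, adjusted p 0.0556), Rfxap -0.01 and Rfxank 0.15. Rfx5 was at 19.7 to 23.6 CPM in controls and 16.7 to 18.6 CPM in libraries labelled mutant, without overlap. Of 9 listed class I-like genes outside the complex, Fcgrt, the neonatal Fc receptor gene, and Procr were called higher (0.57 and 0.53, adjusted p 0.0384 and 0.0198).

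The count at 3 months rested on the libraries used. It was 4, 3, 3 and 9 without control replicates 1 to 4, 6 and 7 without replicates 1 and 3 of the libraries labelled mutant, 26 without replicate 2 and 12 without replicate 4, of which 8 were among the 15. Over all genes the same fits called 400, 412, 391 and 1521, then 856 and 768, then 1438 and 1312. Tap1, Ciita and H2-T10 were called in all 8 of these fits and Nlrc5 in 6. H2-M3 and H2-Q10 were called in 5, H2-Q5 in 4, H2-T22 in 3 and H2-D1 in 2. Psmb8, Psmb10, Tap2, H2-Q4, H2-Q6 and H2-Q7 were called in only the fit without replicate 2 of the libraries labelled mutant. Against the 2 Rfx6f/f controls alone, no member was called by edgeR (36 of all genes), while the median log2 change was -0.63, as with all controls, and Tap1 gave -1.45 (adjusted p 0.147). DESeq2 called 26 members with all controls, and 2983 of all genes. With the B-cell covariate 0 members were called by edgeR and the median was -0.57.

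The last comparison set the effect at 3 months against the effect at 8 days. H2-T10 was the only member called (0.406% of the 17959 genes tested were called in this negative direction and 0.785% in either). At 8 days it was at 3.22, 1.92 and 2.02 CPM in controls and 2.34, 2.46, 3.57 and 3.67 CPM in libraries labelled mutant. Its effect at 3 months minus that at 8 days was -1.38 on the log2 scale (SE 0.29, edgeR interaction adjusted p 0.0487), and it was called in 4 of 15 fits with 1 library left out. Ciita (-1.31, adjusted p 0.0553), H2-T24 (-1.29, adjusted p 0.0553), H2-M3 (-0.76, adjusted p 0.0558) and Tap1 (-1.50, adjusted p 0.0629) did not pass. H2-T24 was at 4.19 to 5.04 CPM in controls and 5.70 to 10.1 CPM in libraries labelled mutant at 8 days, and at 6.83 to 9.49 against 3.89 to 6.44 CPM at 3 months, so its groups were apart in opposite directions, and neither difference was called (adjusted p 0.462 and 0.0565). Of 40 members in this fit, 36 had negative values and 20 an unadjusted p under 0.05, against 2973 of all genes. DESeq2 called 13 members and 1017 of all genes. On the interferon gamma list, Socs1, whose product restrains the pathway, was called in this fit (-2.47, adjusted p 0.0104).

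The levels of the cohorts were also set side by side. For 21 of the 38 members tested at both times, all 4 controls of 3 months stood above every library of 8 days, and for 20 of 38 when the 15 libraries were scaled together. Of the 16810 genes tested at both times, 22.2% and 18.6% did so on these scalings. Tap1 was at 62.9 to 116 CPM over the 7 libraries of 8 days, at 195 to 208 CPM in the controls of 3 months and at 43.5 to 117 CPM in the libraries labelled mutant at 3 months. Irf1 was at 159 to 248, 377 to 431 and 149.6 to 278 CPM in the same order. Time after tamoxifen and cohort cannot be told apart, and the difference between the cohorts' controls was not tested.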

How the data were processed

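Total RNA from ileum was freed of ribosomal RNA and sequenced, per the labels' protocols. The authors deposited raw read counts per Ensembl gene, in 1 table per cohort. The submitters' processing notes name the build mm9, bcl2fastq 2.17.1.14, Bowtie 1.0.0, TopHat2 2.0.10, Bowtie2 2.1.0 and HTSeq 0.6.1 without their roles. Annotation release, strand setting and handling of reads with several matches are not given in the sources used here. The protocols name 2 extraction methods without saying which sample had which.

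Symbols, exon lengths and overlaps came from GENCODE M21 (GRCm38), which named 32897 of 37620 identifiers. As the build differs, no coordinates of it are printed. Promoter windows and their coordinates are RefSeq's on GRCm38.p6. Shared sequence was measured as 50-base words of each gene's transcripts.

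Each cohort was tested alone over all genes by quasi-likelihood F tests in edgeR 4.0.16 (under R 4.3.3 with limma 3.58.1) after filterByExpr (minimum count 10) and TMM scaling. The interaction came from 1 fit of the 15 libraries with 4 group means. A gene was called where its two-sided p, adjusted by Benjamini-Hochberg over all genes tested, was under 0.05. Fold changes are on the log2 scale with their SE. Tests were first checked on simulated counts, where DESeq2 made a larger share of false calls than edgeR. Figures were drawn with matplotlib 3.10.9. No libraries of a group matched within sampling noise (lowest chi-square per degree of freedom 12.1), so each counted as 1 replicate. Depth was 26078462 to 54468586 counts per library, and intervals and floors cover counting error only.

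Members and lists were chosen with earlier results of these data known. Named were the core genes of both pathways, members called in any comparison, members with a mean of at least 1 CPM and groups that did not overlap (29 in all), and H2-Eb2, H2-T3 and H2-T23. Alternatives were DESeq2 1.42.0, RLE scaling, no filter, each library left out, Rfx6f/f controls only, both times in 1 fit, and the mean log2 CPM of the B-cell markers as a covariate (0.1 CPM added). Some single list genes are not reported here.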

Additional observations from a re-analysis of the deposited data

Results flagged for a closer look

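H2-T10 was flagged because its effect at 3 months differed from that at 8 days by the interaction test. The effect at 3 months minus that at 8 days was -1.384 on the log2 scale (edgeR interaction adjusted p 0.0487), between 0.34 at 8 days and -1.03 at 3 months. Across the alternatives tried, that adjusted p lay between 0.000967 and 0.228. H2-T10 shares 31.7% of its 50-base words with H2-T22, and the split of reads between them was not tested. Of 96 checks for a library far from the rest of its group, over the 32 named members, 0 stood out, where chance gives about 4.8 at 1 in 20. The controls of 8 days (n = 3) were left out of these checks, so a deviant library among them was not looked for.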

How the results depend on the processing

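At 8 days, 0 members were called under every alternative except without replicate 1 of the libraries labelled mutant, so that leaving out 1 library gave 0 to 4 (8 to 200 of all genes). At 3 months leaving out 1 library gave 3 to 26 called members (391 to 1521 of all genes), DESeq2 26 (2983), the Rfx6f/f controls alone 0 (36) and the B-cell covariate 0 (206), while RLE scaling gave 15 (1574), no filter 15 (1325) and both times in 1 fit 18 (2271), against 15 (1586) in the fit reported. For the difference between times, leaving out 1 library gave 0 to 9 (10 to 749 of all genes), DESeq2 13 (1017), no filter 3 (223) and the Rfx6f/f controls alone 0 (5), against 1 (141). The fits with fewer controls or a covariate have fewer degrees of freedom, and the cause of the lost calls was not tested. Signs turned only for uncalled values. At 8 days with the B-cell covariate the log2 fold change was 0.0575 for B2m, 0.232 for Nlrc5, 0.24 for Tap1, 0.159 for H2-DMa, 0.216 for H2-DMb1, -0.245 for H2-DMb2, -0.099 for H2-Ob, 0.152 for H2-Aa, 0.146 for H2-Ab1, 0.154 for H2-Eb1, 0.12 for Cd74, 0.00556 for H2-K1, 0.0711 for H2-Q4 and 0.066 for H2-T22. With both times in 1 fit it was 0.00232 for Tap1 and 0.00337 for H2-T22. At 3 months with the covariate H2-Ob gave 0.00531. Leaving out 1 library at 8 days gave values from -0.198 to 0.0652 for B2m, -0.326 to 0.299 for Nlrc5, -0.416 to 0.00502 for Psmb8, -0.173 to 0.14 for Tap1, -0.125 to 0.0944 for Tap2, -0.122 to 0.0443 for Tapbp, -0.382 to 0.128 for H2-DMa, -0.522 to 0.0357 for H2-Ab1, -0.367 to 0.0921 for H2-Eb1, -0.452 to 0.0385 for Cd74, -0.147 to 0.0386 for H2-K1, -0.12 to 0.113 for H2-Q10, -0.229 to 0.0589 for H2-Q4, -0.0375 to 0.374 for H2-Q5 and -0.0467 to 0.0644 for H2-T22. No paired analysis was possible because the labels pair no animals across groups.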
